A study of Mus musculus with 27 samples.

Results

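The genes that write, copy, erase and read DNA methylation were followed in the fetal mouse brain. The 10 members were the rows of the gene table, of 55416 in all, whose symbol is Dnmt1, Dnmt3a, Dnmt3b, Dnmt3l, Tet1, Tet2, Tet3, Uhrf1, Mbd2 or Mbd3. RNA of the whole brain of female fetuses was sequenced in 27 libraries. They came from the inbred strain AKR/J, the inbred strain C57BL/6J and B6.Cg-Cav1tm1Mls/J, a line congenic to C57BL/6J that carries a disrupted Cav1 gene in every cell and is called Cav1-null below. Fetuses were at 12, 15 or 17 days of gestation (d12, d15 and d17), each strain and day had 3 libraries, and no group was treated. The step from d12 to d15 is the early phase and the step from d15 to d17 the late phase. The labels give no litter for any library, so that p-values measure the spread between the 3 libraries of a group.

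DNA methylation is set on cytosines, mostly before a guanine. Dnmt3a and Dnmt3b place it on unmethylated DNA, and Dnmt3l is a partner without catalytic activity that is known from germ cells. Dnmt1 copies the pattern to the new strand after replication, guided by Uhrf1, which binds hemimethylated DNA. The Tet enzymes oxidise methylcytosine, a step towards its removal, and their product is abundant in neurons. Mbd2 binds methylated DNA, Mbd3 is its close relative with weak binding, and each is a subunit of the NuRD complex, which removes acetyl groups from histones and moves nucleosomes.

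In brief, Uhrf1 fell in both phases in every strain, Mbd2 and Mbd3 fell between d12 and d17 in every strain, where the C57BL/6J calls are lost with a replicate block, and in the counts as tested no change of Dnmt1, Dnmt3a or Tet2 from d12 to d17 passed in any strain, although an offset for GC content and length moved all of these downwards. The form of Dnmt3a changed over the same days, as the share of reads from an internal first exon dropped from a median of 57.6% on d12 to 10.7% on d17. Dnmt3l was close to absent.

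Depth was 26363697 to 39759702 reads on genes per library, with a median of 29700746. The unit of level is CPM, a gene's reads scaled to the same total in every library, with TMM factors over the 27 libraries, and ± marks the SD over the 3 libraries of a strain and day. As a check of the labels, Cav1 ranged from 0 to 0.509 CPM in Cav1-null, from 9.25 to 34.2 CPM in AKR/J and from 10.4 to 39.9 CPM in C57BL/6J. Neuron markers, 10 of 10 found, summed to 1830 to 8040 CPM over the libraries. The 3 AKR/J d12 libraries stood apart, with a sum over 11 of 12 erythroid genes found in the table of 33300 to 198000 CPM against 570 to 18600 in the other groups, a trophoblast and decidua sum over 14 genes of 37.9 to 790 CPM against 0.907 to 79.7, and neuron sums of 1830 to 2390 CPM. In the C57BL/6J d15 libraries, levels relative to the other libraries rose with the GC content of genes (correlation across genes 0.48 to 0.5) and with their length (0.3 to 0.31), where the AKR/J and Cav1-null groups ran from -0.46 to 0.05 for GC content. With length, the AKR/J d12 libraries had the most negative correlations, at -0.38 to -0.19, and the other AKR/J and Cav1-null groups ran from -0.17 to 0.21. The other C57BL/6J libraries varied, from 0.08 to 0.49 for GC content on d12 and from -0.15 to 0.42 on d17. These AKR/J d12 libraries enter every AKR/J change from d12 and the d12 comparison of strains. The part of either in the results below was not tested beyond the values printed beside them.

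Of the 10 members, 9 passed the filter on low counts in every comparison. Levels were also put in CPM per kilobase of exon, with the exons of all annotated transcripts of a gene joined. On this scale the medians over 27 libraries were 18.6 for Mbd3, 13.6 for Dnmt1, 10.4 for Dnmt3a, 9.24 for Uhrf1, 7.66 for Tet3, 6.65 for Tet2, 5.54 for Tet1, 3.11 for Mbd2 and 1.34 for Dnmt3b. The order can depend on this choice of length, since Dnmt3a has 17028 bases of joined exons and 9913 in its longest transcript. For Tet2 these lengths are 17740 and 9817, and for Tet1 15457 and 14375. Neighbours in this order overlapped in their ranges, such as Mbd3 at 10.9 to 27.8 and Dnmt1 at 10.4 to 38.6. Dnmt3l had 31 reads in all 27 libraries, with 0 to 5 per library and at most 0.206 CPM. Its highest group was AKR/J d12, with 5, 4 and 3 reads, and all 3 Cav1-null d12 libraries had 0. It did not pass the filter on low counts and was not tested.

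**Figure D1:**
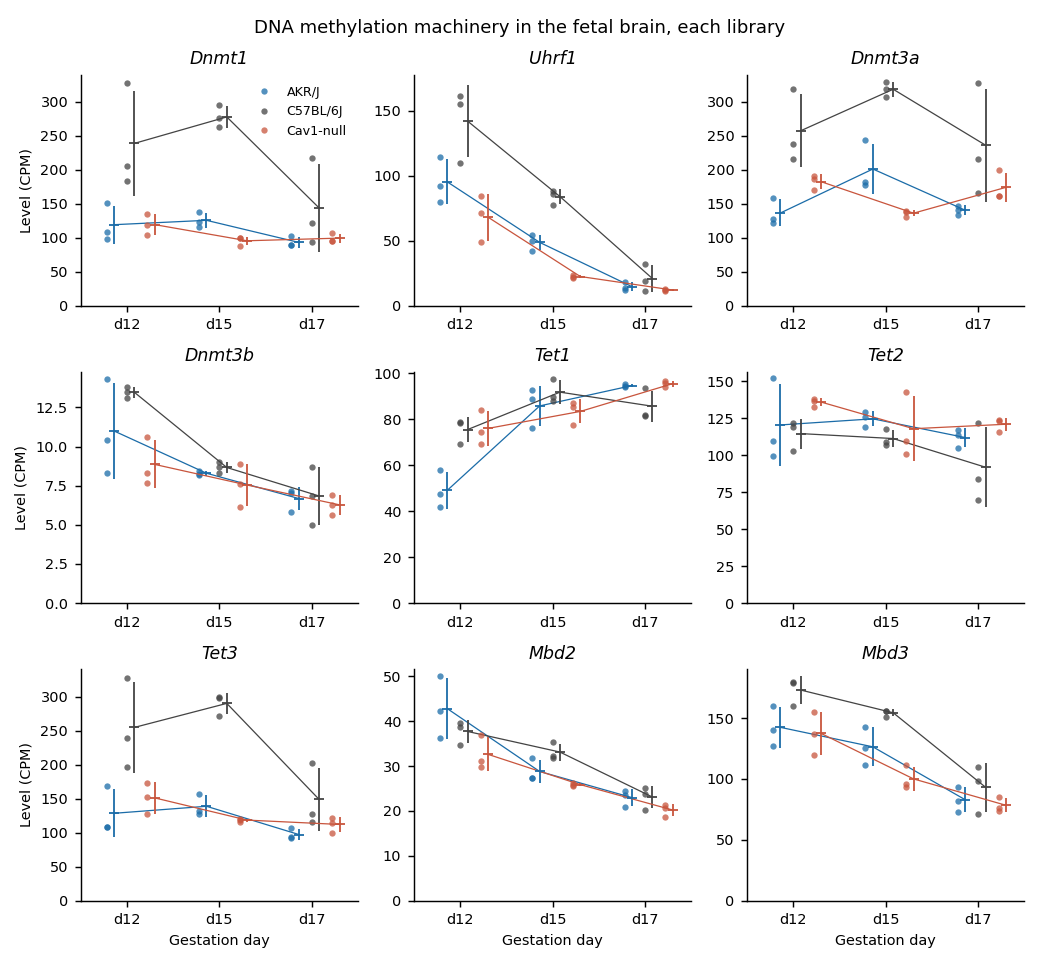
Level in CPM of the 9 tested members on d12, d15 and d17. Points are libraries, and the marks with bars are the mean ± SD of 3 libraries of AKR/J (blue), C57BL/6J (grey) or Cav1-null (red). Uhrf1, Mbd2 and Mbd3 go down over the days in each strain, and Dnmt1, Dnmt3a and Tet3 are highest in C57BL/6J on d15.

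Uhrf1 (chr17:56610275-56630489, GRCm39, plus strand) had the steepest course of the members. In AKR/J its level was 91.8, 114 and 79.9 CPM on d12, 42.4, 49.5 and 54.1 CPM on d15, and 18.5, 13.3 and 11.9 CPM on d17. C57BL/6J had 110, 161 and 155 CPM on d12, 88.5, 86.1 and 77.1 CPM on d15, and 31.9, 11.4 and 19.3 CPM on d17. Cav1-null had 84.6, 71 and 48.7 CPM on d12, 22.1, 23.8 and 21.3 CPM on d15, and 11.7, 11.2 and 13.1 CPM on d17. In each strain every library of a later day lay below every library of the earlier one. From d12 to d17 the log2 fold change was -2.71 (SE 0.22, adjusted p = 6e-05) in AKR/J, -2.72 (SE 0.38, adjusted p = 0.00272) in C57BL/6J and -2.51 (SE 0.19, adjusted p = 3.31e-05) in Cav1-null, by the quasi-likelihood test of edgeR, with adjustment after Benjamini and Hochberg over all genes. These 3 falls passed the threshold under each of their 14 alternative settings. In the early phase the change was -1.02 (SE 0.18) for AKR/J, -0.80 (SE 0.15) for C57BL/6J and -1.6 (SE 0.18) for Cav1-null. The late phase brought -1.73 (SE 0.17), -1.94 (SE 0.34) and -0.89 (SE 0.11) in the same order. All 6 passed, and the C57BL/6J call was lost without any d15 library in the early phase and without d15 replicate 1 or 2 or d17 replicate 3 in the late phase. It was also lost in the early phase with the replicate block, as was the AKR/J early call with library sizes alone and the Cav1-null late call in the model of all 27 libraries. In whole tissue, fewer cells of a type and less RNA per cell cannot be told apart.

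Uhrf1 moved with the genes of DNA replication. The 3 genes whose log2(CPM + 1) over 27 libraries was most like that of Uhrf1, out of 12518 with a mean of at least 5 CPM, were Mcm5 (Pearson's r 0.994), Mcm2 (0.993) and E2f3 (0.99). Mcm5 and Mcm2 are subunits of the replicative helicase, and E2f3 is a transcription factor of S phase. The libraries share strain, day and base composition, so that the correlation is a description. All 16 genes of a list of S phase and mitosis fell from d12 to d17 in each strain, against 22.7%, 11.7% and 23.3% of all genes called lower in AKR/J, C57BL/6J and Cav1-null. Their summed level went from 2000 ± 81.1 to 473 ± 99.4 CPM in AKR/J, from 2370 ± 417 to 445 ± 108 CPM in C57BL/6J and from 1840 ± 559 to 353 ± 13.8 CPM in Cav1-null. Of 10 neural progenitor markers, 7, 8 and 8 fell over the same step, and 1, 1 and 2 rose, against 23.1%, 14.5% and 20.8% of all genes called higher. The sum of the neuron markers went up, from 2130 ± 282 to 6620 ± 111 CPM in AKR/J. It went from 4810 ± 1280 to 6980 ± 1060 CPM in C57BL/6J and from 5080 ± 692 to 6750 ± 127 CPM in Cav1-null. A test of whether Uhrf1 changes among dividing cells was not possible in whole tissue.

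E2F factors drive genes of S phase, and their core letters TTTCCCGC, TTTGGCGC, TTTCGCGC or TTTGCCGC, searched on both strands, occurred in 2.26% of 32851 RefSeq promoter windows (GRCm38.p6), each reaching from upstream of a start to a short way past it. The windows of 9 members were searched, and that of Mbd2 was not analysed here. The letters were found in 1 of 3 windows of Dnmt1 and 1 of 2 windows of Uhrf1. These are shown because no other of the 9 members had a match, and the capitals mark the letters on either strand. The Dnmt1 window is chr9:20952574-20952873 on the minus strand, and the Uhrf1 window is chr17:56304063-56304362 on the plus strand. Each held 33 CpG, against a median of 7 over all windows.
Dnmt1 window: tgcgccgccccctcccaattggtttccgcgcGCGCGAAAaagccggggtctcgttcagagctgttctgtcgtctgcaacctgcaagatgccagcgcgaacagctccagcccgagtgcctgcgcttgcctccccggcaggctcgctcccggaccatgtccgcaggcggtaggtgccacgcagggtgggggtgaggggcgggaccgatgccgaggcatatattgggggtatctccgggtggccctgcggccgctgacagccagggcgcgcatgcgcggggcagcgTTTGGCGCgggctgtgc
Uhrf1 window: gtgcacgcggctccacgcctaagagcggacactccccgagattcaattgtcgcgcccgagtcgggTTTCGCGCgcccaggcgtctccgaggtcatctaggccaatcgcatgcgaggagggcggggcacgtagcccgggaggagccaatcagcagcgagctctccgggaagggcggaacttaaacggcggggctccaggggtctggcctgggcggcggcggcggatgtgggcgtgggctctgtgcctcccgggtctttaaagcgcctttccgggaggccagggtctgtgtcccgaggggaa
A match is a run of letters and not a binding site. Of the reads that joined either of the 2 first exons of Uhrf1 to its next exon, 1330 came from one and 324, or 19.59%, from the other.

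Dnmt1 (chr9:20817945-20871184, GRCm39, minus strand), the partner of Uhrf1 in maintenance, had no change from d12 to d17 past the threshold in the counts as tested. In AKR/J it had 109, 151 and 97.7 CPM on d12 and 102, 88.6 and 88.7 CPM on d17. C57BL/6J had 206, 328 and 183 CPM on d12 and 217, 93.4 and 121 CPM on d17. Cav1-null had 135, 119 and 104 CPM on d12 and 95.9, 107 and 95.5 CPM on d17. The ranges of the days overlapped in every strain. The log2 fold change from d12 to d17 was -0.35 (SE 0.19, adjusted p = 0.174 by edgeR) in AKR/J, -0.69 (SE 0.35, adjusted p = 0.187) in C57BL/6J and -0.27 (SE 0.10, adjusted p = 0.0613) in Cav1-null. With an offset for GC content and length, chosen after seeing the data, the 3 changes were -0.75 for AKR/J, -0.71 for C57BL/6J and -0.39 for Cav1-null, each past the threshold. From d15 to d17, Dnmt1 of AKR/J fell by 0.41 (SE 0.09, adjusted p = 0.0166 by edgeR). This call was lost without d17 replicate 2 or 3 and in the model of all 27 libraries. The difference between the changes of Uhrf1 and Dnmt1 was not tested. Genes most like Dnmt1 over the libraries were Plxnb2 (r 0.991), Prpf8 (0.991) and Tcof1 (0.99), and Dnmt1 and Tet3 themselves had an r of 0.98.

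Dnmt3a (chr12:3856007-3964443, GRCm39, plus strand) had no change in total from d12 to d17 that passed in the counts as tested. Its level was 136 ± 20.1, 201 ± 36.6 and 140 ± 7.01 CPM in AKR/J on d12, d15 and d17. In C57BL/6J it was 257 ± 53.9, 318 ± 10.9 and 236 ± 82.5 CPM, and in Cav1-null 183 ± 10.9, 136 ± 4.37 and 174 ± 21.5 CPM. From d12 to d17 the log2 fold change was 0.04 (SE 0.16), -0.09 (SE 0.29) and -0.09 (SE 0.11) in AKR/J, C57BL/6J and Cav1-null, with adjusted p of 0.854, 0.848 and 0.566 by edgeR. With the offset for GC content and length it was -0.60 in AKR/J and -0.37 in Cav1-null, past the threshold, and -0.25 in C57BL/6J, which did not pass. Within the phases, Dnmt3a fell by 0.42 in the early and rose by 0.36 in the late phase of Cav1-null, and AKR/J had a late fall of -0.50, where the call was lost without d17 replicate 2 or 3. The rise in Cav1-null was 0.14 with that offset and did not pass. In the model of all 27 libraries, none of these changes within a phase passed. Wdr6 (r 0.973), Kbtbd11 (0.971) and Slc22a23 (0.97) were most like Dnmt3a over the libraries.

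Dnmt3a makes a long form and a short form. The short form starts at an internal promoter, lacks the first part of the protein and is known from embryonic stem cells and germ cells. In the splice table, 2 junctions end at the same exon of Dnmt3a, and each read across them comes from one form or the other. The intron chr12:3923429-3945542 (1610 reads) is annotated in 7 transcripts, among them Dnmt3a-201. The intron chr12:3941861-3945542 (987 reads) follows the first exon of a single transcript, Dnmt3a-204, whose start codon lies at 3945573 in the shared exon. The sequences around the choice are shown in the GRCm39 build on the plus strand, except for the promoter window of the internal start, which is from RefSeq (GRCm38.p6, chr12:3891494-3891793, plus strand). The exon before the long-form junction is chr12:3923282-3923428, and the shared exon begins at chr12:3945543-3945602, with the start codon of the short form in capitals.
Dnmt3a exon before the long-form junction: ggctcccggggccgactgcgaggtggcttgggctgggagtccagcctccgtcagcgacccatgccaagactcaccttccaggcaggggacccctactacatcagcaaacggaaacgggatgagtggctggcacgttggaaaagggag
Dnmt3a start of the shared exon: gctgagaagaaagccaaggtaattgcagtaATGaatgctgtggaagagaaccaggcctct
Dnmt3a internal promoter window: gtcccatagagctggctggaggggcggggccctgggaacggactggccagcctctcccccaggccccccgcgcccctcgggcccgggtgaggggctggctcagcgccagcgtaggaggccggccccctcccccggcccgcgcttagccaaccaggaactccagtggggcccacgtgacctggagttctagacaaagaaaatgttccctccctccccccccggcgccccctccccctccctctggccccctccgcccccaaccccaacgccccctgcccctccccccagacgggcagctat
The internal window held 18 CpG and the 2 windows of the upstream starts 46 and 47.

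The share of the short form dropped from day to day in every strain. In AKR/J it was 53.3%, 72.6% and 79.2% on d12, 49.3%, 39.8% and 50.7% on d15, and 27.8%, 14.9% and 9.8% on d17. C57BL/6J had 57.6%, 47.9% and 71.3% on d12, 27.9%, 26.2% and 24.4% on d15, and 9.66%, 10.7% and 14.3% on d17. Cav1-null had 52.1%, 66.1% and 56.6% on d12, 37.7%, 34.3% and 28.2% on d15, and 3.17%, 15% and 4.55% on d17. The 3 days did not overlap within any strain. Summed over strains, the long-form junction had 382, 647 and 581 reads on d12, d15 and d17, and the short-form junction 577, 333 and 77. The difference of d17 from d12 was -49.66 percentage points, with p = 0.00025 in an exact two-sided permutation test of days within strains, the smallest value that its 8000 arrangements can give, and adjusted p = 0.002 over the 8 junction pairs tested. A single share is imprecise, since a library had 30 to 194 reads on the pair. AKR/J d12 replicate 1, with 16 of 30 reads, has a 95% Wilson interval of 36.1% to 69.8%, which covers counting error only. Leaving out any 1 library kept this call. On d15 the AKR/J shares lay above those of C57BL/6J and of Cav1-null, and this difference was not tested.

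**Figure D2:**
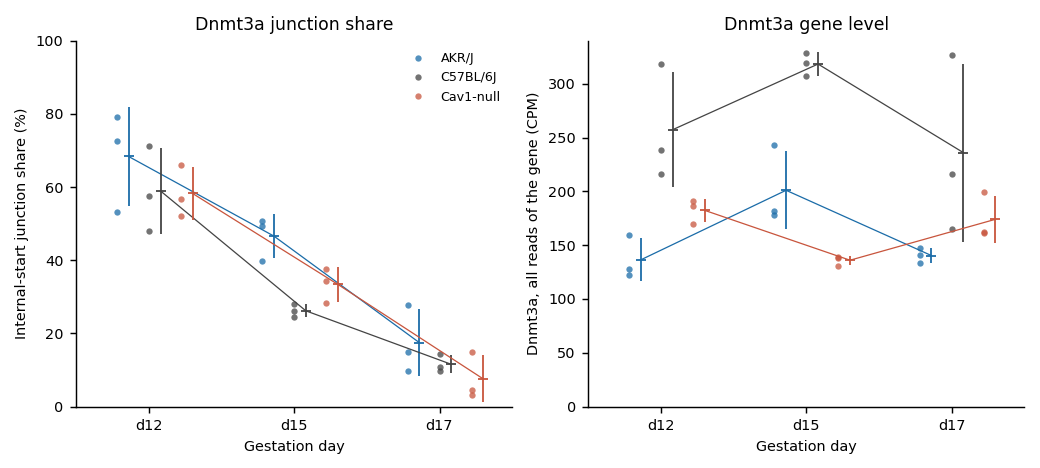
Share of the internal-start (short-form) junction among the reads of both Dnmt3a junctions, in percent (left), and level of the whole gene in CPM (right), by day. Points are libraries, and marks with bars are mean ± SD of 3 libraries of AKR/J (blue), C57BL/6J (grey) or Cav1-null (red). The share goes from 47.9% or more on d12 to 27.8% or less on d17 in all strains, and the gene level shows no such course.

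Dnmt3b (chr2:153490861-153529650, GRCm39, plus strand), the other enzyme of new methylation, was the lowest of the tested members and declined. Its level was 11.0 ± 3.03, 8.30 ± 0.155 and 6.68 ± 0.734 CPM in AKR/J on d12, d15 and d17. It was 13.5 ± 0.376, 8.66 ± 0.366 and 6.84 ± 1.85 CPM in C57BL/6J, and 8.86 ± 1.55, 7.54 ± 1.35 and 6.28 ± 0.627 CPM in Cav1-null. The fall from d12 to d17 passed the test in AKR/J (log2 fold change -0.72, SE 0.25, adjusted p = 0.0471 by edgeR) and in C57BL/6J (-0.96, SE 0.24, adjusted p = 0.0225). In Cav1-null it was -0.51 (SE 0.20, adjusted p = 0.0633). The AKR/J call held under 6 of 14 alternatives and the C57BL/6J call under 8 of 14. Leaving out AKR/J d12 replicate 2 or 3, or any AKR/J d17 library, lost the former, and leaving out C57BL/6J d12 replicate 1 or 2 or d17 replicate 3 lost the latter. Tjap1 (r 0.894), Cdc25b (0.884) and Ing5 (0.882) were most like Dnmt3b over the libraries.

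The ratio of Dnmt3a to Dnmt3b reads was 17.6 ± 4.49 over the 9 libraries of d12, 26.5 ± 8.71 on d15 and 29.2 ± 14.4 on d17. By strain it went from 12.7 ± 1.79 over 24.2 ± 4.53 to 21.2 ± 3.42 in AKR/J, from 19.1 ± 4.03 over 36.8 ± 2.82 to 38.6 ± 23.9 in C57BL/6J, and from 20.9 ± 2.48 over 18.5 ± 3.49 to 27.9 ± 4.2 in Cav1-null. The Cav1-null mean was lower on d15 than on d12, and the C57BL/6J d17 libraries ran from 19 to 65.2. Over the strains it was 1.59 times as high on d17 as on d12 (log2 difference 0.67, exact permutation p = 0.001), and the ratio was not tested with the offset for GC content and length. From d15 to d17 the log2 difference was 0.10, with an exact permutation p of 0.646.

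Tet1 (chr10:62640349-62744775, GRCm39, minus strand) was the one member called higher from d12 to d17, in AKR/J and Cav1-null, of which the Cav1-null change turned slightly negative under the offset. In AKR/J its level was 41.9, 58 and 47.4 CPM on d12, 88.7, 76.2 and 92.7 CPM on d15 and 94, 94.6 and 95.6 CPM on d17. C57BL/6J had 79, 78.5 and 69.2 CPM on d12 and 81.6, 93.6 and 82 CPM on d17. Cav1-null had 84.2, 74.7 and 69.3 CPM on d12 and 96.7, 95.8 and 94.2 CPM on d17. The d12 libraries lay below the d17 libraries in each strain, and the AKR/J d12 libraries were the lowest of all. The log2 fold change from d12 to d17 was 0.95 (SE 0.16, adjusted p = 0.0018 by edgeR) in AKR/J, 0.32 (SE 0.09, adjusted p = 0.0173) in Cav1-null and 0.21 (SE 0.15, adjusted p = 0.339) in C57BL/6J. With the offset for GC content and length it was 0.39 in AKR/J (adjusted p = 0.0212), -0.02 in Cav1-null and -0.08 in C57BL/6J. The Cav1-null rise was also lost without d12 replicate 2 or any d17 library. The low AKR/J d12 values are from the libraries with the high erythroid sums. Genes most like Tet1 over the libraries were Aak1 (r 0.959), Vps13c (0.959) and Ralgapa2 (0.957).

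Tet3 (chr6:83339355-83436066, GRCm39, minus strand) went the other way. Its level was 128 ± 35.3, 139 ± 15.9 and 97.2 ± 7.88 CPM in AKR/J on d12, d15 and d17, 255 ± 66.7, 290 ± 15.4 and 149 ± 46.6 CPM in C57BL/6J, and 151 ± 23.3, 119 ± 1.91 and 112 ± 11.1 CPM in Cav1-null. The change from d12 to d17 was -0.45 (SE 0.12, adjusted p = 0.0173 by edgeR) in Cav1-null, -0.40 (SE 0.21, adjusted p = 0.149) in AKR/J and -0.74 (SE 0.28, adjusted p = 0.0894) in C57BL/6J. With the offset it was -0.80, -1.10 and -0.90 in the same order, each past the threshold. The closest genes over the libraries were Sart1 (r 0.984), Nup188 (0.98) and Gtf2i (0.98). Without the offset, Tet3 fell between d15 and d17 in AKR/J (-0.50) and C57BL/6J (-0.90). The Cav1-null call was lost without d12 replicate 1 or 2 or d17 replicate 1 or 3, the AKR/J one without d17 replicate 2 or 3, and the C57BL/6J one without any d15 library or d17 replicate 2 or 3. In the model of all 27 libraries the Cav1-null and AKR/J calls were also lost.

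Set against each other, Tet1 gained on Tet3. The ratio of their reads in AKR/J was 0.39 ± 0.0485, 0.62 ± 0.0487 and 0.98 ± 0.0817 on d12, d15 and d17. In C57BL/6J it was 0.307 ± 0.0593, 0.317 ± 0.0205 and 0.617 ± 0.202, and in Cav1-null 0.507 ± 0.0343, 0.703 ± 0.0343 and 0.861 ± 0.0954. Every d17 library lay above every d12 library of its strain. Over the strains the ratio was 2.03 times as high on d17 as on d12 (log2 difference 1.02, exact permutation p = 0.00025, the smallest possible). From summed junction reads the log2 difference was 1.302, which did not pass (exact permutation p = 0.0555). The GC content of the longest transcript is 43.7% for Tet1 and 53.4% for Tet3, and the ratio was not tested with the offset.

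**Figure D3:**
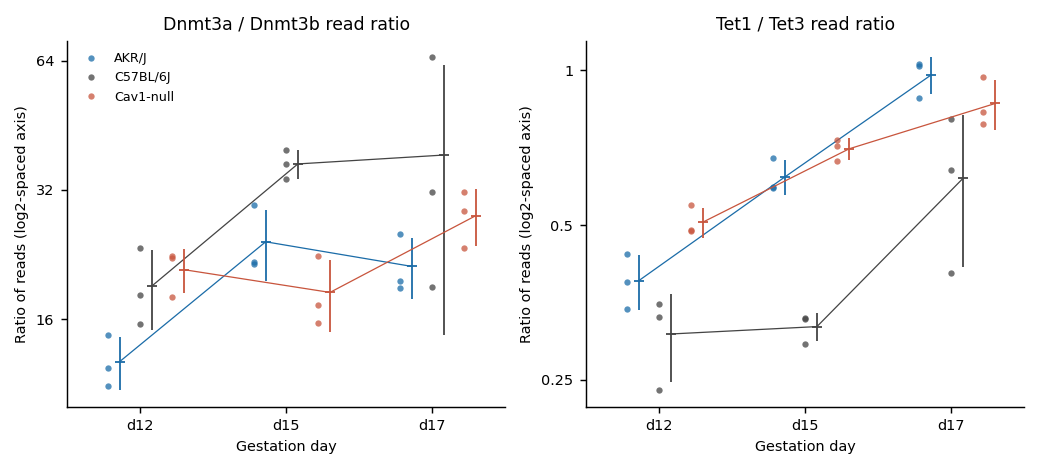
Ratio of Dnmt3a to Dnmt3b reads (left) and of Tet1 to Tet3 reads (right) in each library by day, on log2-spaced axes. Points are libraries, and marks with bars are mean ± SD of 3 libraries of AKR/J (blue), C57BL/6J (grey) or Cav1-null (red). Tet1 gains on Tet3 in each strain, from 0.239 to 0.546 on d12 to 0.403 to 1.03 on d17, and C57BL/6J has the lowest mean on each day.

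Tet2 (chr3:133169436-133250900, GRCm39, minus strand) varied little between days. Group means ran from 91.8 ± 26.9 CPM in C57BL/6J on d17 to 136 ± 2.54 CPM in Cav1-null on d12. No change between days passed the test in any strain, and the changes from d12 to d17 were -0.10 (SE 0.19), -0.31 (SE 0.22) and -0.19 (SE 0.07) in AKR/J, C57BL/6J and Cav1-null. With the offset for GC content and length they were -0.69, -0.42 and -0.41, and those of AKR/J and Cav1-null passed. Its closest genes over the libraries were Ubn2 (r 0.887), Zfp26 (0.874) and Mir100hg (0.874).

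The readers Mbd2 and Mbd3 fell together from d12 to d17. Mbd2, on chromosome 18, had 36.3, 42.2 and 50 CPM on d12 and 24.5, 20.9 and 23.5 CPM on d17 in AKR/J. In C57BL/6J it had 34.8, 38.8 and 39.6 CPM and then 23.8, 20.3 and 25.2 CPM, and in Cav1-null 31.2, 36.9 and 29.8 CPM and then 20.7, 21.3 and 18.6 CPM. The days did not overlap in any strain. Its log2 fold change was -0.90 (SE 0.17, adjusted p = 0.00316 by edgeR), -0.68 (SE 0.17, adjusted p = 0.0228) and -0.71 (SE 0.11, adjusted p = 0.00138) in AKR/J, C57BL/6J and Cav1-null. Among the genes most like Mbd2 were Dbx1 (r 0.962), a transcription factor of early neural development, and Rbm38 (0.958).

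Mbd3 (chr10:80225002-80235397, GRCm39, minus strand) had 143 ± 16.5, 126 ± 15.9 and 82.8 ± 10.3 CPM in AKR/J on d12, d15 and d17, 173 ± 11.3, 154 ± 2.77 and 93.2 ± 20.2 CPM in C57BL/6J, and 137 ± 17.3, 99.8 ± 9.42 and 78.3 ± 5.82 CPM in Cav1-null. Its log2 fold change from d12 to d17 was -0.78 (SE 0.16, adjusted p = 0.00529 by edgeR), -0.86 (SE 0.21, adjusted p = 0.0223) and -0.82 (SE 0.10, adjusted p = 0.000385). In C57BL/6J the Mbd2 call was lost without any d12 library or d17 replicate 2 or 3, and the Mbd3 call without d12 replicate 1 or 2 or d17 replicate 3. With a replicate block neither passed there (adjusted p = 0.0824 and 0.0626 by edgeR), and with library sizes alone neither passed in AKR/J (-0.53 and -0.39). The genes most like Mbd3 were Ier2 (r 0.974), Mcm3 (0.974) and H2ax (0.972).

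Mbd3 also has a choice in its first exon. A stretch of 96 bases, chr10:80234956-80235051 in GRCm39 and given here from the minus strand, is kept when the exon ends at its later splice site, and 24 annotated transcripts hold it as coding sequence. It is shown because its use was the only other share that passed the test in some setting among the pairs of the main rule.
Mbd3 optional stretch: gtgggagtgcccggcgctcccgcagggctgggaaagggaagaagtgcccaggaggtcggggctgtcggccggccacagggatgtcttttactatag
Over all libraries, 2095 of 10813 reads, or 19.37%, came from the form that keeps it, with 17.3%, 19.2% and 23.4% of the summed reads on d12, d15 and d17. The difference of d17 and d12 was 5.34 points (exact permutation p = 0.402, adjusted p = 0.909), and 3 libraries are listed at 0 for the shorter form, where a 0 can stand for reads that were removed. Without these, a setting chosen after seeing the data, the rise was 6.07 points (exact permutation p = 0.00333, adjusted p = 0.0133). Another Mbd3 pair had 4.955% of its reads on the minor junction and so just missed the minimum of 5%. With a minimum of 4%, also chosen later, its minor share fell by 3.78 points (exact permutation p = 0.00025, adjusted p = 0.00113), from 4.48% to 8.94% on d12 to 1.35% to 5.05% on d17. The remaining 6 pairs, in Tet1, Tet2, Tet3 and Uhrf1, had adjusted p of 0.909 in the same test.

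**Figure D4:**
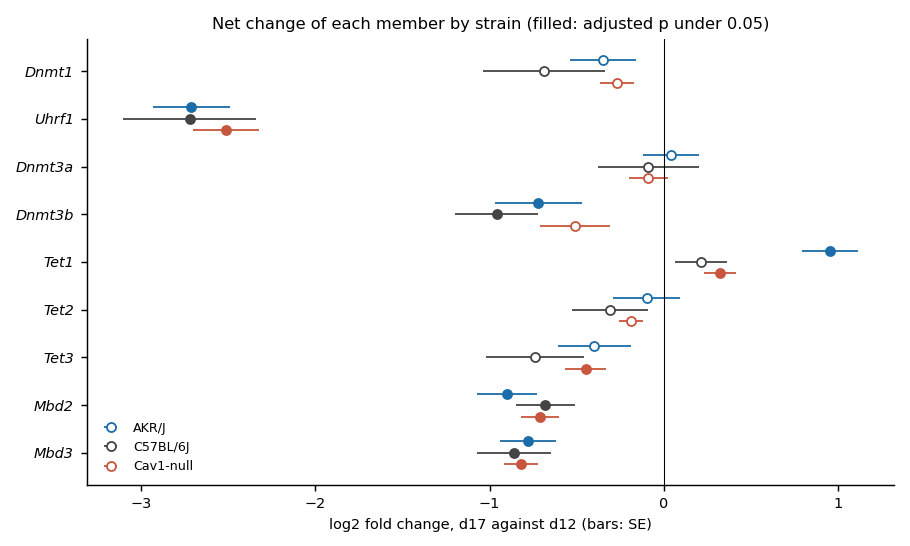
Log2 fold change from d12 to d17 of the 9 tested members with its SE, in AKR/J (blue), C57BL/6J (grey) and Cav1-null (red), each from 6 libraries. Filled points have an adjusted p under 0.05. Uhrf1 lies between -2.72 and -2.51, Mbd2 and Mbd3 between -0.90 and -0.68, and Tet1 is the one member to the right of 0 in all strains.

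Counted by phase, the members called lower outnumbered those called higher. For AKR/J between d12 and d15, 1 of 9 rose (Tet1, by 0.76) and 2 fell (Uhrf1 and Mbd2), against 28.9% of all tested genes called, 14.8% higher and 14% lower. C57BL/6J had 2 lower over that step (Uhrf1 and Dnmt3b), against 14.9% called and 7.8% lower. Cav1-null had 5 lower (Uhrf1, Mbd3, Dnmt3a, Tet3 and Mbd2), against 23.4% called and 11.8% lower. Between d15 and d17, AKR/J had 5 lower (Uhrf1, Mbd3, Dnmt3a, Tet3 and Dnmt1), against 22.1% called and 10.4% lower. C57BL/6J had 2 lower (Uhrf1 and Tet3), against 13% called and 5.58% lower. Cav1-null had 1 higher (Dnmt3a) and 3 lower (Uhrf1, Mbd2 and Mbd3), against 27.3% called, 14.5% higher and 12.8% lower. From d12 to d17, AKR/J had 1 higher and 4 lower, against 45.8% called, 23.1% higher and 22.7% lower. C57BL/6J had 4 lower over that span, against 26.2% called and 11.7% lower, and Cav1-null had 1 higher and 4 lower, against 44% called, 20.8% higher and 23.3% lower. The median log2 fold change of the 9 members over that step was -0.40, -0.69 and -0.45, beside -0.01, -0.02 and -0.04 for all genes. Whether the members' shares differ from those of all genes was not tested. With the offset for GC content and length, AKR/J had 7 lower and none higher between d12 and d15, against 28.7% of all genes called and 14.4% lower, and C57BL/6J had 4 lower, against 19.8% called and 11.4% lower. Over d12 to d17 AKR/J then had 1 higher and 8 lower, against 48.8% called, 23.4% higher and 25.4% lower. With a replicate block, C57BL/6J had 0 called in the early phase, against 0% of all genes, and 1 from d12 to d17, against 13.4%. Cav1-null had 3 in the early phase with the block, against 17%. Several counts rest on single libraries, as do those of all genes. Between d12 and d15, AKR/J had 1 call without d12 replicate 3, d15 replicate 1 or d15 replicate 3, and C57BL/6J had 0 without any d15 library, 1 without d12 replicate 1 and 4 without d12 replicate 2. Cav1-null had 2 or 3 without d12 replicate 1 or 2 or any d15 library. Between d15 and d17 AKR/J had 1 without d17 replicate 2 and 2 without d17 replicate 3. C57BL/6J had 0 without d15 replicate 1 or 2 or d17 replicate 3, 1 without d15 replicate 3, and 6 without d17 replicate 1. Over d12 to d17, C57BL/6J had 1 without d12 replicate 1 or 2 or d17 replicate 3, and Cav1-null had 3 when d12 replicate 2 or either of d17 replicates 1 and 3 was left out. With 1 library left out, the share of all genes called between d12 and d15 ran from 12.4% to 43.5% for AKR/J, from 0% to 29.8% for C57BL/6J and from 11.2% to 35.9% for Cav1-null. Between d15 and d17 it ran from 7.58% to 23.3% for AKR/J and from 0.767% to 33.2% for C57BL/6J. From d12 to d17 it was 10.8% to 25.2% in C57BL/6J and 30.2% to 50.8% in Cav1-null.

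Between strains, most calls fell on d15, for the members as for all genes. Against C57BL/6J on d15, 6 of 9 members were lower in Cav1-null and none was higher, but 58.6% of all tested genes were called in this comparison and 31.8% were called lower. Dnmt1 had 99.4, 98.9 and 88.3 CPM in Cav1-null and 276, 295 and 263 CPM in C57BL/6J, a log2 difference of -1.5 (SE 0.07, adjusted p = 5.33e-08 by edgeR). Dnmt3a had 139, 138 and 131 CPM against 307, 329 and 319 CPM (-1.18, SE 0.05). Tet3 had 116, 120 and 119 CPM against 272, 298 and 300 CPM (-1.25, SE 0.05). In these genes the strains were far from overlapping. Uhrf1 was at -1.87 (SE 0.08), Mbd3 at -0.59 (SE 0.07) and Mbd2 at -0.32 (SE 0.08) on the log2 scale. The sum over 12 genes of muscle and connective tissue was 80.8 to 119 CPM in Cav1-null and 309 to 4820 CPM in C57BL/6J on d15. The sum over 8 vessel and microglia genes was 69.8 to 78.5 CPM in Cav1-null and 93.4 to 115 CPM in AKR/J against 204 to 274 CPM in C57BL/6J, with 6 of 8 genes lower in each. The sum of the S phase and mitosis list was 716 ± 10.8 CPM in Cav1-null and 1290 ± 114 CPM in C57BL/6J, with 13 of 16 genes lower and 2 higher. Of 10 neural progenitor markers 9 were lower in Cav1-null and 1 higher, with sums of 1430 to 1550 CPM against 1930 to 2020 CPM. Of 10 neuron markers 6 were lower and 4 higher, with sums of 6150 to 6320 CPM against 6960 to 7790 CPM. Of 6 astrocyte genes 3 were lower and 1 higher, with sums of 146 to 165 CPM against 343 to 382 CPM. Of 11 erythroid genes 6 were higher and 2 lower, with sums of 2910 to 3620 CPM in Cav1-null and 2010 to 3070 CPM in AKR/J against 825 to 1070 CPM in C57BL/6J. The part of these lists in the differences was not tested.

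AKR/J differed from C57BL/6J on d15 in 5 of 9 members, 1 higher and 4 lower, against 41.1% of all genes, with 18.8% higher and 22.3% lower. The lower ones were Dnmt1 at -1.08 (SE 0.08, adjusted p = 0.000205 by edgeR), Tet3 at -1.0 (SE 0.08), Uhrf1 at -0.72 (SE 0.10) and Dnmt3a at -0.60 (SE 0.11). Tet2 was higher by 0.23 (SE 0.06, adjusted p = 0.0176 by edgeR), a call lost without AKR/J d15 replicate 1 or 3 or any C57BL/6J d15 library. The neuron sum on d15 was 4270 to 6170 CPM in AKR/J against 6960 to 7790 CPM in C57BL/6J. For neural progenitor markers it was 1380 to 1800 against 1930 to 2020 CPM, and for astrocyte genes 202 to 296 against 343 to 382 CPM. For the S phase and mitosis list it was 1160 ± 55.9 against 1290 ± 114 CPM. Their part in these differences was not tested. The longest transcripts of Dnmt1, Dnmt3a and Tet3 are 53.5%, 51.9% and 53.4% GC. Those of Dnmt3b, Mbd3 and Uhrf1 are 53.9%, 56.0% and 54.0% GC, and those of Mbd2, Tet2 and Tet1 50.2%, 47.4% and 43.7%. On d15 without the offset, Dnmt3b was at 0.01 and Mbd3 at -0.22 in AKR/J, and they were at -0.16 and -0.59 in Cav1-null. All 3 C57BL/6J d15 libraries have the trend in GC content and length, which some C57BL/6J libraries of d12 and d17 share. With the offset that removes this trend, Dnmt1 was at -0.74 in Cav1-null and -0.51 in AKR/J, and Uhrf1 at -1.29 and -0.33, all past the threshold. Dnmt3a was at -0.40 in Cav1-null and Tet3 at -0.34, past the threshold, while in AKR/J Dnmt3a was at 0.04 and Tet3 at -0.26, which did not pass. Tet2 was higher by 0.61 in each strain and Dnmt3b by 0.45 in Cav1-null and 0.43 in AKR/J. Mbd3 turned from lower to higher, at 0.23 in Cav1-null and 0.36 in AKR/J, both past the threshold. Mbd2 of Cav1-null, called lower without the offset, was at 0.08 with it and did not pass, and with library sizes alone it was at -0.14 and did not pass either.

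**Figure D5:**
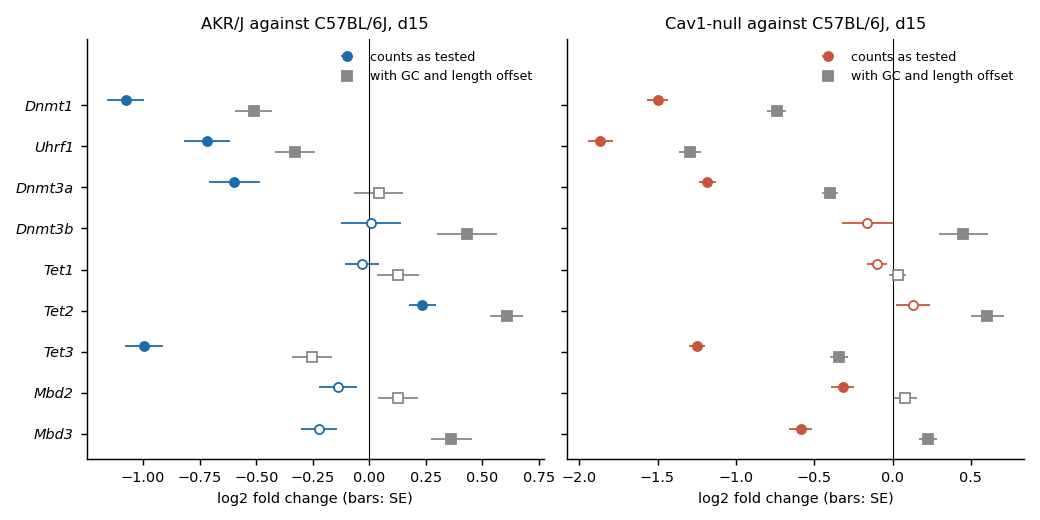
Log2 difference from C57BL/6J on d15 of the 9 tested members in AKR/J (left) and Cav1-null (right), with SE, from 6 libraries each. Circles are the counts as tested, grey squares the same with an offset for GC content and length, and filled marks have an adjusted p under 0.05. All 9 squares of each strain lie to the right of their circles, and in Cav1-null Dnmt1 moves from -1.5 to -0.74.

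The other days had fewer calls, again as for all genes. On d12, AKR/J was lower in 3 of 9 members (Dnmt1 at -0.86, Tet3 at -0.84 and Dnmt3a at -0.77), against 28.6% of all genes called and 14.1% called lower, and with the offset none of these 3 passed (-0.16, 0.06 and 0.02), while Tet2 and Mbd2 were higher by 0.70 and 0.65. The count was 0 without AKR/J d12 replicate 1 or 3 or C57BL/6J d12 replicate 1 or 2, where 6.8%, 7.48%, 8% and 0.122% of all genes were called. With RLE size factors Dnmt3a alone of the members passed, where 28% of all genes were called. With library sizes alone the Tet3 call was lost. Cav1-null had 0 of 9 called on d12 by edgeR, against 0% of all genes, with 5 members at an unadjusted p under 0.05, against 22.1% of all genes. The log2 differences were -1.02 (SE 0.23) for Uhrf1 and -0.96 (SE 0.22) for Dnmt1. DESeq2 called 4 members, against 10.5% of all genes, and without C57BL/6J d12 replicate 3 edgeR called 2, against 7.37%. On d17, edgeR called 0 of 9 in AKR/J, against 0.742% of all genes, with 2 at an unadjusted p under 0.05, against 21.2%. It called 0 in Cav1-null, against 0.0491%, with 1 at an unadjusted p under 0.05, against 7.55%. DESeq2 called 0 in each, against 6.58% and 0.236% of all genes. Without C57BL/6J d17 replicate 2, 5 members were called in AKR/J and 3 in Cav1-null, against 26.4% and 13.6% of all genes.

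edgeR called no member as differing between strains in its change between days, and other settings called a few. In the early phase, edgeR's interaction test called 0 of 9 for AKR/J against C57BL/6J, against 0.0711% of all genes, and 0 for Cav1-null, against 0.00472%. At an unadjusted p under 0.05 there were 2 and 3 members, against 16.3% and 15% of all genes. In the late phase it called 0 for AKR/J, against 0.00468%, and 0 for Cav1-null, against 0.252%. At an unadjusted p under 0.05 there were 0 and 4 members, against 7.57% and 21.9%. DESeq2 called 0 for AKR/J in either phase, against 4.83% and 0.211% of all genes, and 1 for Cav1-null in each, against 2.44% and 6.7%. The late-phase counts became 2 for AKR/J and 5 for Cav1-null when C57BL/6J d17 replicate 1 was left out, against 3.7% and 26.1% of all genes. The early-phase count of Cav1-null became 3 without C57BL/6J d12 replicate 2, against 7.3%, and that of AKR/J became 1 without AKR/J d12 replicate 2, against 14.8%.

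The partners of the members were followed from d12 to d17 in lists, and those named are the largest changes among the calls unless said otherwise. Of 14 partners in maintenance, 6, 5 and 9 were called lower in AKR/J, C57BL/6J and Cav1-null, beside the 22.7%, 11.7% and 23.3% of all genes. Called higher were 2, 0 and 1, beside 23.1%, 14.5% and 20.8% of all genes. Hells, a remodeller that opens chromatin to methylation, had log2 fold changes of -2.27, -2.10 and -2.19, and Pcna, the replication clamp that Dnmt1 binds, of -2.15, -1.65 and -1.87. Cdca7, the activator of Hells, had -1.38, -2.13 and -1.85. Cdca7l, its relative, had -1.77, -2.09 and -1.65. These changes had SE of 0.17 to 0.27. Zfp57, which protects imprints and was chosen after its values were seen, rose in AKR/J by 1.5 and in Cav1-null by 0.37.

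Of 11 other readers, 5, 2 and 2 rose and 1, 2 and 4 fell, beside 45.8%, 26.2% and 44% of all genes called in either direction. Zbtb38 and Zbtb4, zinc finger proteins that bind methylated DNA, rose in all strains, Zbtb38 by 1.95, 0.96 and 0.79 and Zbtb4 by 1.51, 1.14 and 0.94. Mbd4, a glycosylase of mismatched bases, fell in all, with -1.52, -1.02 and -0.76.

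Of 13 NuRD subunits, 6, 7 and 8 fell, beside 22.7%, 11.7% and 23.3% of all genes. Counted the other way, 3, 0 and 1 rose, beside 23.1%, 14.5% and 20.8% of all genes called higher. Hdac1, a deacetylase, fell in all strains (-1.16, -1.40 and -1.38), as did Chd4, a remodelling ATPase of the complex (-0.78, -1.20 and -0.93). Cdk2ap1 fell as well (-1.27, -1.30 and -1.18). Chd5, the ATPase known from neurons, rose by 3.99 in AKR/J and by 1.49 in Cav1-null, and was at 1.65 (SE 0.58, adjusted p = 0.0692 by edgeR) in C57BL/6J.

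Of 18 genes of oxidised cytosine repair and cofactors of the Tet enzymes, 7, 8 and 10 fell and none rose, beside the same shares of all genes called lower and higher. Gadd45g fell in all strains (-2.49, -2.76 and -2.45), and so did Neil3, a glycosylase of oxidised bases (-1.91, -2.22 and -2.07). Apex1, an endonuclease of base excision repair, had -0.93, -0.97 and -1.22. Gadd45b fell in AKR/J (-2.05), and Gadd45a in AKR/J (-1.99) and Cav1-null (-0.87). Tdg, the glycosylase that removes the products of the Tet enzymes, fell in C57BL/6J (-1.30) and Cav1-null (-0.80). Of 12 genes of the methyl donor and folate cycle, 5, 7 and 10 fell, beside the same shares, and none rose, with Tyms, which makes thymidylate, at -2.31, -2.14 and -2.31. Shmt1, which loads folate with a carbon unit, had -2.21, -1.98 and -1.79. Of 12 germline genes that DNA methylation is known to silence, 6, 5 and 7 were tested, and 1, 2 and 2 rose, beside 23.1%, 14.5% and 20.8% of all genes called higher. Dazl rose in each strain (2.90, 2.27 and 1.67, with SE of 0.95, 0.58 and 0.54) while Brdt rose in C57BL/6J and Cav1-null (1.5 and 1.13). Dazl stayed low throughout, with group means of 0.176 to 1.35 CPM.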

How the data were processed

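RNA-seq of poly-A RNA was analysed in 27 libraries, 3 per strain and day, grouped by GEO's labels. The authors trimmed reads with cutadapt and fastp and mapped them with STAR to GRCm39, and they deposited raw read counts per gene and per splice junction. The counting tool, its strand setting and the tool versions are not given in the sources used here, so that reads of overlapping antisense genes cannot be told apart. From the junction table they removed junctions with multi-mapped reads, short overhangs or few reads.

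From these counts, edgeR 4.0.16 (R 4.3.3; filterByExpr, TMM scaling, quasi-likelihood test) compared days within a strain and strains within a day in 6 libraries, and the change between days between strains in 12. P-values were adjusted by Benjamini-Hochberg over all genes tested, with a threshold of 0.05. The SE was derived from the log2 fold change and the F statistic. CPM used TMM factors over 27 libraries. Read ratios and junction shares were tested on d17 against d12 by exact two-sided permutation within strains. Junction pairs that share an end were tested when they had enough reads and at least 5% of them on the minor junction. Exon lengths and junctions were read from GENCODE, and promoter windows from RefSeq. Alternatives used DESeq2 1.42.0, other scalings and filters, a model of all libraries, a replicate block, libraries left out and, chosen after seeing the data, an offset for GC content and length and other junction rules.

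All members are named. From each partner list, up to 3 called genes of largest change per comparison are named, and for each member the 3 genes of highest Pearson's r on log2(CPM + 1). Some genes that these rules name are not reported here. The members and lists were chosen with earlier results of these data known. The edgeR fit and the permutation test were tried on simulated data. The other steps, among them the offset and DESeq2, were not.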

Additional observations from a re-analysis of the deposited data

How the results depend on the processing

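The offset for GC content and length, chosen after seeing the data, turned the direction of 12 member changes that passed the threshold in the counts as tested or with the offset, and the cause was not tested. In the early phase they were Dnmt1 (-0.42) and Tet3 (-0.62) in AKR/J and Tet3 (-0.34) in C57BL/6J, and from d12 to d17 Dnmt3a in AKR/J (-0.60) and Tet1 in Cav1-null (-0.02). Against C57BL/6J they were Dnmt3a (0.02) and Tet3 (0.06) in AKR/J on d12, Dnmt3a (0.04) and Mbd3 (0.36) in AKR/J on d15, and Dnmt3b (0.45), Mbd2 (0.08) and Mbd3 (0.23) in Cav1-null on d15. With the offset the members called were 7 in place of 3 for AKR/J and 4 in place of 2 for C57BL/6J from d12 to d15 and 9 in place of 5 from d12 to d17 in AKR/J, where 28.7%, 19.8% and 48.8% of all genes were called. Library sizes alone gave 1 in the early phase and 2 from d12 to d17 in AKR/J, against 24.1% and 36.7% of all genes, and RLE size factors gave 1 in place of 3 for AKR/J against C57BL/6J on d12, against 28%.

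The model of all 27 libraries gave 2 in the early phase of Cav1-null, 2 in the late phase of AKR/J, 5 in that of C57BL/6J and 0 in that of Cav1-null, against 13.1%, 10.2%, 19.6% and 3.56% of all genes. It gave 1 for AKR/J against C57BL/6J on d17, 3 for Cav1-null on d12 and 1 in the early-phase interaction of AKR/J, against 3.6%, 7.44% and 7.12%. DESeq2 gave 5 in the late phase of C57BL/6J, 4 for Cav1-null on d12 and 1 in either interaction of Cav1-null, against 23%, 10.5%, 2.44% and 6.7%. No filter on low counts gave 4, 2 and, in the late-phase interaction, 3 for the same groups, against 8.33%, 2.16% and 2.61%.

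The replicate block gave 0 in place of 2 in the early phase and 1 in place of 4 from d12 to d17 in C57BL/6J, and 3 in place of 5 in the early phase of Cav1-null, against 0%, 13.4% and 17% of all genes. All 3 pairs of same-numbered libraries had an r over 0.1 only for AKR/J against C57BL/6J on d12 (0.15, 0.4 and 0.33), where the block kept the count at 3. In every other comparison at least 1 pair missed it (on d17 for AKR/J the r were 0.52, 0.37 and -0.02). The block moved no other count by over 1.5 times.

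Leaving out 1 library gave 1 to 4 members for AKR/J in the early phase, 0 to 4 in C57BL/6J and 2 to 6 in Cav1-null, and in the late phase 1 to 5, 0 to 6 and 3 to 4. From d12 to d17 it gave 4 to 5, 1 to 6 and 3 to 7. Against C57BL/6J it gave 0 to 4, 4 to 5 and 0 to 5 for AKR/J on d12, d15 and d17, and 0 to 2, 6 to 6 and 0 to 3 for Cav1-null. The interactions gave 0 to 1 and 0 to 2 for AKR/J and 0 to 3 and 0 to 5 for Cav1-null. The log2 difference of the Dnmt3a to Dnmt3b ratio ran from 0.5089 to 0.8057 and that of Tet1 to Tet3 from 0.9479 to 1.114, and the junction pairs called stayed at 1. From d15 to d17 the Dnmt3a to Dnmt3b difference was 0.09959, and from summed junction reads that of Tet1 to Tet3 was 1.302 and did not pass. Without libraries at 0, or with a minor share of at least 4 percent, 2 junction pairs were called.

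Falls of Uhrf1 from d12 to d17 in all strains, the AKR/J rise of Tet1 over that step and the lower Dnmt1 and Uhrf1 of AKR/J and Cav1-null on d15 passed under every alternative run. The effect of depth was not tested, and Dnmt3l, Dnmt3b and single junction shares rest on the fewest reads.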
